A study of Homo sapiens with 8 samples.

Results

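AntagomiR-375, an antisense inhibitor of the microRNA miR-375, was compared with a control transfection (CTL) in TT cells, a line derived from a human medullary thyroid carcinoma. The 4 TT arrays, 2 per group, were taken from the 8 one-colour Agilent arrays of the series by their sample titles, and arrays with the same replicate number, which lie on the same slide, were paired. TT cells were transfected for 48 h, and the labels give a final concentration of 20 nM for the antagomiR, while the methods of the study give another figure. The labels name the control TT_CTL without its reagent. The other 4 arrays carried RNA of Nthy-ori 3-1 cells, a non-tumoral follicular thyroid line, transfected for 48 h with CTL or with premiR-375 at 5 nM, a synthetic precursor that adds the same miRNA. The array holds probes for 36337 gene names, of which 36331 could be fitted. For 16292 of them the standing probe, the brightest of the gene on average over the 4 TT arrays, had a mean log2 signal above 6, which served as the minimum level.

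Medullary thyroid carcinoma arises from the C cells of the thyroid, endocrine cells that secrete calcitonin. MiR-375 is abundant in neuroendocrine cells such as pancreatic islet cells, where it was first known as a brake on hormone secretion. A mature miRNA guides Argonaute proteins to mRNAs through its seed, the bases next to its 5′ end, and paired mRNAs are translated less and degraded faster. An antagomiR binds the miRNA and keeps it from its targets, so direct targets are those that could gain mRNA. The mature sequence from RefSeq (GRCh38.p14, chr2:219001648-219001669, minus strand) is shown because every seed match below is read from it, with the seed, bases 2 to 8, in capitals.
hsa-miR-375-3p: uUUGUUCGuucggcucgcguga
The DNA letters that pair with this seed are CGAACAA. The array had 0 probes for MIR375, so the inhibited miRNA itself could not be checked here.

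Between 57.8% and 61.1% of the gene probes were well above background on each TT array, and 0 spots were saturated. The RNA integrity number was 8 for both CTL samples and 9 for both antagomiR-375 samples, so that RNA integrity and treatment cannot be told apart. Within genes with bright probes over 1000 bases apart on hg19, the probe nearest the 3′ end differed from the most 5′ probe by a median of 0.05 in its log2 fold change (0.04 in pair 1 and 0.06 in pair 2, 2698 genes). The median log2 signal of the E1A spike-in transcripts, which are added in equal amounts before labelling, was 7.29 on both arrays of pair 1, and 7.16 with CTL against 6.75 with antagomiR-375 in pair 2. Centring on the spike-ins therefore moved the median of all genes above the minimum level from -0.01 to 0.19, and all values below are relative to a quantile normalization in which that median is -0.01. Markers of the cell type were checked next. Of the 13 C cell markers 12 were on the array and all 12 were above the minimum level, led by CALCA, which encodes calcitonin, at a mean log2 signal of 18.58 and CHGA, a granule protein, at 16.92. Of the follicular markers 3 of 10 passed the minimum level (led by TG at 9.15), of the fibroblast markers 1 of 7 (LUM at 6.76), and of the leukocyte and endothelial markers 5 of 7, of which PTPRC read 10.56 and the other 4 between 6.09 and 8.34. VWF, the von Willebrand factor of endothelium, was called higher by the rule given next, at 0.66; the part of such cells in the results was not tested, and in bulk RNA fewer cells of a type and less RNA per cell cannot be told apart.

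Inhibition of miR-375 was followed by more genes at a higher than at a lower level. A log2 fold change of at least 0.6 with the same direction in both pairs was found upward for 466 of the 16292 genes (2.86%) and downward for 241 (1.48%). Together they are 707 genes (4.34%), and an unadjusted p under 0.05 was found with limma for 1670 genes (10.3%). In the text a gene is called higher or lower by this fold rule, which is not a test. Of the higher genes 102, and of the lower genes 29, were past a log2 fold change of 1. Each pair passed 0.6 by itself for 301 of the higher and 119 of the lower genes. With spike-in centring the rule called 978 genes higher and 30 lower. Among genes called higher the median was 0.82 for pair 1 and 0.77 for pair 2, and among those called lower it was -0.72 for each pair. Over all 16292 genes the log2 fold changes of the pairs differed by a median of 0.16, and had the same sign for 11091 genes (68.1%). Both antagomiR-375 arrays were above both CTL arrays for 23.9% of all genes and below both for 26.4%. The log2 fold change was above 0 for 48.2% of all genes, above 0 in both pairs for 31.9% and below 0 in both for 36.2%.

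**Figure D1:**
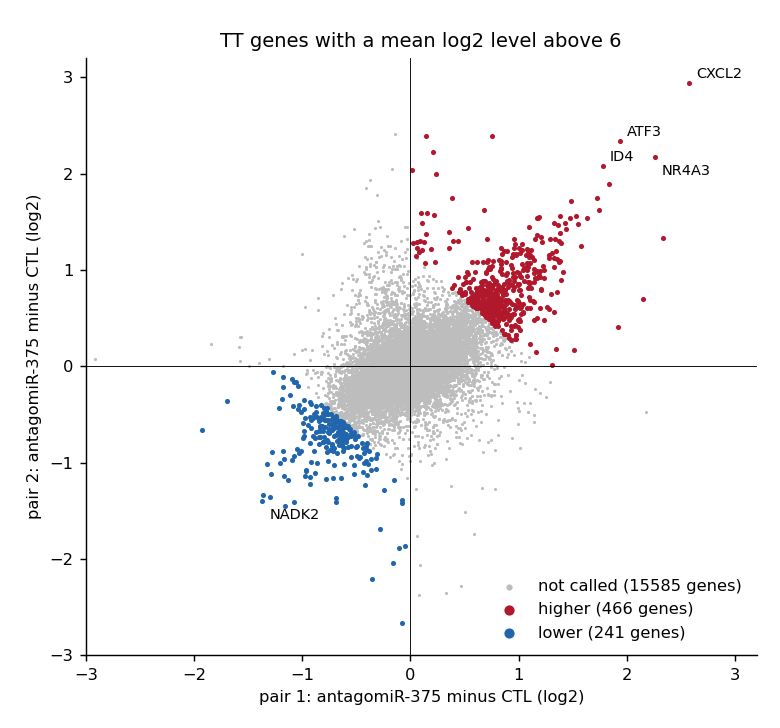
Log2 fold change of antagomiR-375 over CTL in pair 1 (x axis) and pair 2 (y axis) for the 16292 TT genes with a mean log2 level above 6, 1 point per gene. The 466 genes called higher (red) and the 241 called lower (blue) lie in the upper right and lower left, CXCL2 is at the upper end, and 3 genes fall outside the plotted range.

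No probe passed an adjusted p of 0.05 with limma in the paired fit of the TT arrays (smallest adjusted p = 0.512 over 50587 probes), while 4920 probes had an unadjusted p under 0.05 (9.73%). That fit has 1 residual degree of freedom and a prior of 1.13, and an exact permutation test of 2 arrays against 2 cannot go below p = 0.333. When both lines shared the error estimate, only probes well above background on at least 2 TT arrays were kept and the prior variance followed the level, 82 of 30297 probes passed with limma, 72 higher (0.238%) and 10 lower (0.033%). The 68 gene names with a higher probe included CXCL2, NR4A3, ATF3, EMC10, MCAM, NECTIN2, ID1, FZD5, ERLIN2, SEC24A, JUN, EIF2S1 and KIAA1191, and the 10 lower ones included PTBP2, NADK2, UTRN, MT1F, ENHO and MCUB. Each of these changes alone left 0 probes past the threshold.

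The gene with the largest difference in both pairs was CXCL2, a chemokine that attracts neutrophils. Its probe lies at chr4:74962985-74963044 on hg19, and its log2 signal was 5.30 and 5.82 with CTL, against 7.88 and 8.76 with antagomiR-375. The level was 6.77 times that of CTL, a log2 fold change of 2.76 ± 0.15 (SE, n = 2 pairs). The log2 fold change was smaller under other settings, at 1.92 with the deposited values, 1.95 with the median signal and 1.82 with normexp. NR4A3, an orphan nuclear receptor of the immediate early kind, read 5.39 and 5.69 with CTL, against 7.65 and 7.87 with antagomiR-375, and its log2 fold change of 2.22 became 1.41 to 1.46 under the same 3 settings and 1.26 as the median over its probes. ATF3, a transcription factor induced by cellular stress, read 9.19 and 9.36 with CTL, against 11.12 and 11.70 with antagomiR-375, a log2 fold change of 2.14 ± 0.16 (SE, n = 2 pairs). One of the 2 other bright ATF3 probes gave -0.02 and the second 0.80, and the median over its probes was 1.47. FOS, a subunit of the AP-1 transcription factor, read 6.37 and 6.39 with CTL, against 7.85 and 8.11 with antagomiR-375. These 3 regulators of transcription were thus higher in each pair, by at least 1.48 on the log2 scale.

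Other genes among the 15 higher ones of the naming rule follow, without a test of what they share. EMC10 is a subunit of the complex that inserts proteins into the membrane of the endoplasmic reticulum. Its brightest probe, at chr19:50986430-50986489 on hg19, read 13.35 and 13.30 with CTL, against 15.08 and 15.05 with antagomiR-375, a log2 fold change of 1.74 ± 0.08 (SE, n = 2 pairs), and its second probe gave 0.49. MCAM, the adhesion molecule CD146, read 6.97 and 7.06 with CTL, against 8.72 and 8.68 with antagomiR-375. NECTIN2, another adhesion molecule, differed by 1.63 and 1.54 in the pairs at its brightest probe and by 0.19 at its second. FZD5, a receptor for Wnt ligands, read 8.27 and 8.25 with CTL, against 9.70 and 9.67 with antagomiR-375. For ERLIN2, a protein of lipid rafts of the endoplasmic reticulum that takes part in protein degradation, both probes were higher, by 1.47 and 1.24. MLC1, a membrane protein known from astrocytes, differed by 1.83 and 1.89 in the pairs, or by 1.05 to 1.16 on average with the deposited values, the median signal or normexp, and C2CD4A, a nuclear protein of endocrine cells, by 1.43 and 1.49. PPP1R14D, an inhibitor of protein phosphatase 1, differed by 1.48 and 1.54. RIPOR3 differed by 1.53 and 1.56 at its brightest probe, and the median over all its probes was 0.06. The CTL and the antagomiR-375 arrays did not overlap for any of the 15, nor for 457 of the 466 genes called higher. Over all genes, both antagomiR-375 arrays were above both CTL arrays for 23.9%. The naming rule picks large changes in both pairs and so favours this separation.

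Of the 15 genes lower by the same rule, NADK2 makes NADP in mitochondria, and its log2 signal was 7.25 and 6.65 with CTL, against 5.88 and 5.25 with antagomiR-375, a log2 fold change of -1.38 ± 0.08 (SE, n = 2 pairs), or -0.76 with normexp. PTBP2, a splicing regulator of neural cells, read 9.68 and 9.47 with CTL, against 8.32 and 8.12 with antagomiR-375. UTRN, the homologue of dystrophin, was lower at both of its probes, by -1.11 and -0.98. FST, the secreted follistatin that binds activin and bone morphogenetic proteins, read 8.81 and 8.75 with CTL, against 7.68 and 7.57 with antagomiR-375. Other secreted proteins were adropin, the product of ENHO (-0.92 and -0.998 in the pairs), and C1QTNF12 (-1.10 and -0.97). LIPH, a lipase that makes lysophosphatidic acid, differed by -1.07 and -1.41 (-0.65 on average with normexp), and MCUB, an inhibitory subunit of the mitochondrial calcium uniporter, by -1.03 and -0.89. DOK7, an activator of the muscle receptor kinase MuSK, differed by -0.97 and -1.08 (median over its probes -0.38), and MTMR9, a phosphatase homologue without activity, by -0.97 and -1.08. EVX1, a homeobox factor, differed by -0.93 and -1.23, and MPZL3, an adhesion protein of the immunoglobulin superfamily, by -1.17 and -1.14 (median over its probes -0.59). The metallothioneins MT1G and MT1F complete the rule with LRRD1, whose median over all its probes was -0.04 against -1.08 at the brightest. Again no CTL array overlapped with an antagomiR-375 array. The naming rule favours this, and it held for 222 of the 241 genes called lower, beside 26.4% of all genes. The adjusted p was 0.512 for each of these 30 genes in the paired fit.

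**Figure D2:**
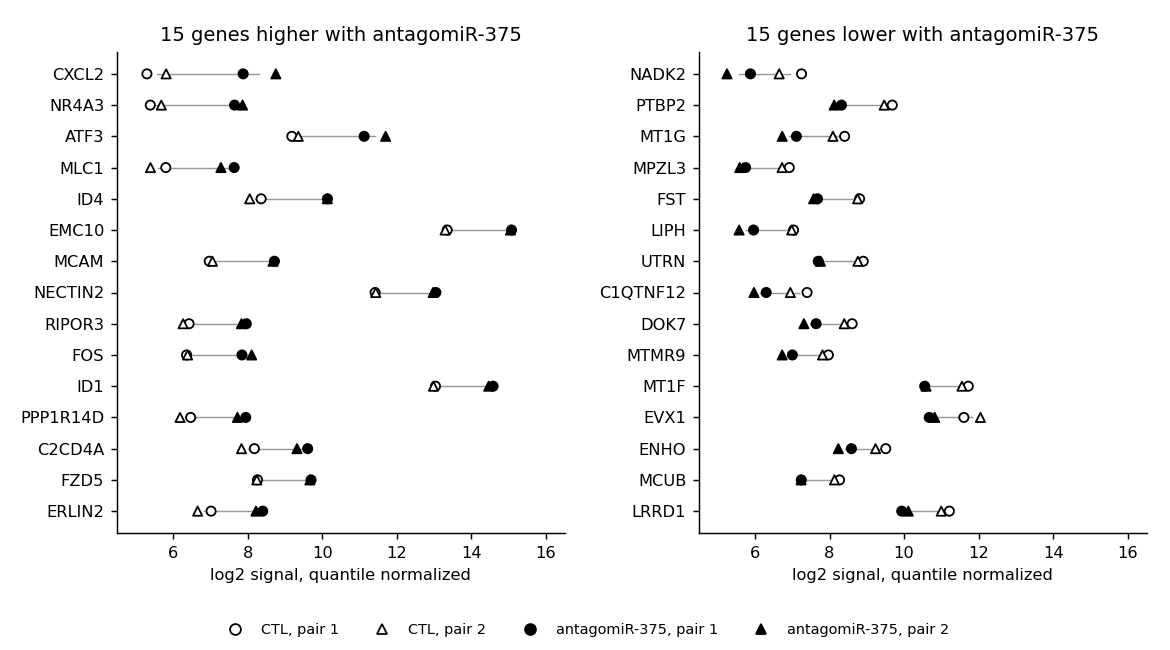
Log2 signal of the 15 higher (left) and 15 lower (right) genes of the naming rule on each TT array. Open symbols are CTL, filled symbols antagomiR-375, circles pair 1 and triangles pair 2, and the grey line joins the group means. Open and filled symbols do not overlap for any gene, which the naming rule favours.

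Genes of the integrated stress response, the programme that follows phosphorylation of the translation factor eIF2, were mostly at higher levels. Of 19 members above the minimum level 17 (89.5%) had a log2 fold change above 0, beside 48.2% of all genes, 4 (21.1%) were called higher, beside 2.86%, and 0 lower, and their median was 0.35 against -0.01 for all genes. Beside ATF3, the called members were SLC7A11, the cystine importer, at 8.64 and 8.46 with CTL, against 9.58 and 9.63 with antagomiR-375, SLC7A5, a transporter of large neutral amino acids, with 0.88 and 0.95 in the pairs, and PPP1R15A, which directs the dephosphorylation of eIF2, with 0.74 and 0.60. The master regulator ATF4 read 15.35 and 15.38 with CTL, against 15.65 and 15.66 with antagomiR-375, and DDIT3, the pro-apoptotic factor CHOP, differed by 0.37 and 0.61. A pair of enzymes that ATF4 controls were at smaller values, ASNS at -0.09 and MTHFD2 at -0.18. EIF2S1, the subunit of eIF2 that is phosphorylated, read 8.42 and 8.04 with CTL, against 9.59 and 9.41 with antagomiR-375. The endoplasmic reticulum arm of the stress response had a median of 0.07 over 20 genes. PDIA4, a disulphide isomerase, was its 1 called member at 0.64 (5% of the 20, beside 2.86% of all genes). The chaperone HSPA5, also known as BiP, was at -0.14.

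Among 16 immediate early genes, which answer growth factors and stress without new protein synthesis, 5 (31.2%) were called higher, beside 2.86% of all genes, and 0 lower, and the median was 0.28 (0.15 in pair 1 and 0.33 in pair 2). Their order was NR4A3 (2.22), FOS (1.60), NR4A2 (1.04), JUN (0.89) and EGR4 (0.60). NR4A3 was below the minimum level on both CTL arrays and passed it through its antagomiR-375 arrays. JUN, the partner of FOS in AP-1, read 8.18 and 8.403 with CTL, against 9.15 and 9.23 with antagomiR-375. EGR1 read 9.13 and 8.69 with CTL, against 9.03 and 8.68 with antagomiR-375, a log2 fold change of -0.05 that was above 0 under spike-in centring, and MYC differed by -0.25 and -0.29 in the pairs. EGR4 rested mostly on pair 2, with 0.13 and 1.07. Of 13 targets and feedback inhibitors of the ERK pathway 1 was called higher (7.69%, beside 2.86% of all genes), the phosphatase DUSP5 at 0.71 and 0.68. The median of the 13 was 0.26, with 0.34 in pair 1 and 0.12 in pair 2. CCND1, the cyclin D1 of the G1 phase, differed by 0.72 and 0.37, while the feedback inhibitors SPRY2 and SPRY4 were at -0.05 and -0.25.

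SEC23A, which the study names as a target of miR-375, builds the inner coat of COPII vesicles that carry cargo out of the endoplasmic reticulum. Its probe lies at chr14:39501669-39501728 on hg19, and its log2 signal was 9.55 and 9.68 with CTL, against 10.24 and 10.29 with antagomiR-375, a log2 fold change of 0.65 ± 0.09 (SE, n = 2 pairs). Among the coat genes SEC24A had the larger fold change. SEC24A, one of the cargo-binding partners of SEC23A, read 8.28 and 8.27 with CTL, against 9.35 and 9.27 with antagomiR-375, a log2 fold change of 1.04, and SEC24D, another, differed by 0.75 and 0.60. Of 16 members of the coat and its exit sites 3 (18.8%) were called higher, beside 2.86% of all genes, and 0 lower. SEC23A is among these 3 and was chosen by the study partly on these same arrays, so its call is not independent evidence. Of the 16, 13 (81.2%) were above 0 in both pairs, beside 31.9% of all genes, and their median was 0.30, with 0.34 in pair 1 and 0.17 in pair 2. The paralogue SEC23B was at 0.45, the outer coat subunits SEC13 and SEC31A at 0.32 and 0.22, and the GTPase SAR1A at -0.21. In Nthy-ori 3-1 cells with premiR-375, SEC23A was at -1.39, SEC24A at -0.61 and SEC24D at 0.38.

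The 22 genes that the study selected from these same arrays were all above 0 in both pairs, with a median of 0.87, and since they were chosen on these samples their direction is not independent evidence. By the brightest probe 20 of the 22 were called higher. KIAA1191 read 12.40 and 12.42 with CTL, against 13.48 and 13.47 with antagomiR-375 and MAT2B, a regulatory subunit of methionine adenosyltransferase, 9.17 and 9.39 with CTL, against 10.01 and 10.06 with antagomiR-375. The largest difference of the 22 belonged to SFRP1, a secreted antagonist of Wnt ligands, at 7.37 and 7.72 with CTL, against 8.95 and 8.97 with antagomiR-375. The 2 below the fold were HSP90AA1, a cytosolic chaperone, at 0.55 and SYT2, a calcium sensor of exocytosis, at 0.57. Of 13 targets of miR-375 known from other tissues SEC23A was the only one called (7.69%, beside 2.86% of all genes). SEC23A is also among the 22, so this share is not independent evidence. The median of the 13 was 0.16, with 0.17 in pair 1 and 0.06 in pair 2. PDPK1, a kinase upstream of AKT, differed by 0.52 and 0.48 in the pairs and MTPN, the myotrophin of the islet studies, by 0.30 and 0.02. YAP1 and the other 3 list members not among the 13 were below the minimum level in TT cells. MTDH, an oncoprotein, was at 0.20 in TT cells and at -2.98 in Nthy-ori 3-1 cells with premiR-375, and USP1, a deubiquitinase, at -0.15 and -1.53.

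The families described next were chosen after their values were seen. The ID genes encode inhibitors of basic helix-loop-helix transcription factors, and bone morphogenetic proteins (BMP) are their best known inducers. All 4 were above 0 in both pairs, beside 31.9% of all genes, and 3 were called higher, beside 2.86%. ID1 read 13.04 and 12.98 with CTL, against 14.58 and 14.46 with antagomiR-375, a log2 fold change of 1.51 ± 0.09 (SE, n = 2 pairs). ID4 read 8.36 and 8.06 with CTL, against 10.14 and 10.14 with antagomiR-375. ID3 read 11.12 and 11.18 with CTL, against 12.22 and 12.25 with antagomiR-375, and ID2, the brightest of the family, 14.80 and 15.04 with CTL, against 15.23 and 15.27 with antagomiR-375. Of 14 BMP pathway genes above the minimum level 3 were called higher (21.4%, beside 2.86% of all genes) and 1 lower (7.14%, beside 1.48%). Their median was 0.10 (0.09 in pair 1 and 0.02 in pair 2). The higher ones were SMAD9, a receptor-regulated SMAD, at 1.099 and 0.82 in the pairs, ATOH8, a target of the pathway, at 0.82 and 0.65, and BAMBI, a pseudoreceptor and target, at 0.62 and 0.62. The lower one was FST. The SMADs that carry the signal were at -0.03 (SMAD1), -0.05 (SMAD5) and -0.28 (SMAD4), the ligand BMP2 at -0.13 and the antagonist NOG at -0.07. Of these 5 only SMAD4 stayed below 0 under spike-in centring. The directions of the ID genes, SMAD9, ATOH8, BAMBI and FST were the same under all 7 other ways of processing the arrays. These reuse the same arrays, and the genes were chosen after their values were seen, so this is not independent evidence.

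Metallothioneins, small proteins that bind zinc and copper, went the other way. All 11 above the minimum level had a log2 fold change below 0, with a median of -0.45. Of the 11, 10 were below 0 in both pairs (90.9%, beside 36.2% of all genes). By the fold rule 2 were called lower (18.2%, beside 1.48%). MT1G read 8.41 and 8.09 with CTL, against 7.11 and 6.73 with antagomiR-375 and MT1F 11.72 and 11.55 with CTL, against 10.55 and 10.59 with antagomiR-375, and both were called lower. MT1X differed by -0.50 and -0.41 in the pairs, MT1E by -0.52 and -0.36 and MT2A, the brightest, by -0.25 and -0.37. MT3, the brain member, differed by -0.27 and 0.11, and it was above 0 under spike-in centring. MT1G, MT1F, MT1X, MT1E and MT2A stayed below 0 under every scaling, all of which reuse the same arrays. The copies of MT1 are near-identical, so that their probes can bind the same transcripts and the 11 are not independent. Among genes of metal transport, SLC31A1, the main importer of copper, was higher at 6.85 and 6.64 with CTL, against 8.14 and 7.96 with antagomiR-375, and SLC39A14, an importer of zinc and iron, differed by 0.82 and 0.61. SLC30A1, a zinc exporter induced like the metallothioneins, was at -0.38, and the sensor MTF1 at -0.17, or above 0 under spike-in centring. The promoter of MT2A (RefSeq, GRCh38.p14, chr16:56608334-56608583, plus strand, the 250 bases before the start) is shown for its metal response elements, the letters TGCACNC or TGCGCNC on either strand, in capitals.
MT2A promoter: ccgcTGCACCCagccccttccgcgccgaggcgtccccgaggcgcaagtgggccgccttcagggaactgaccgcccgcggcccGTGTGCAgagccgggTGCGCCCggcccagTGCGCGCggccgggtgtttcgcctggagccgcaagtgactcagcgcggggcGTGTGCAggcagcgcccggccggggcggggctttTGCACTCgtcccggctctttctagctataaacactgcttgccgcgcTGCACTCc
It holds 7 of these matches, and each of the 4 metallothionein promoters in the RefSeq table held a match, as did 34.8% of those of genes called lower, 32.8% of those of genes above the minimum level and 24.7% of all promoters of the same length.

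**Figure D3:**
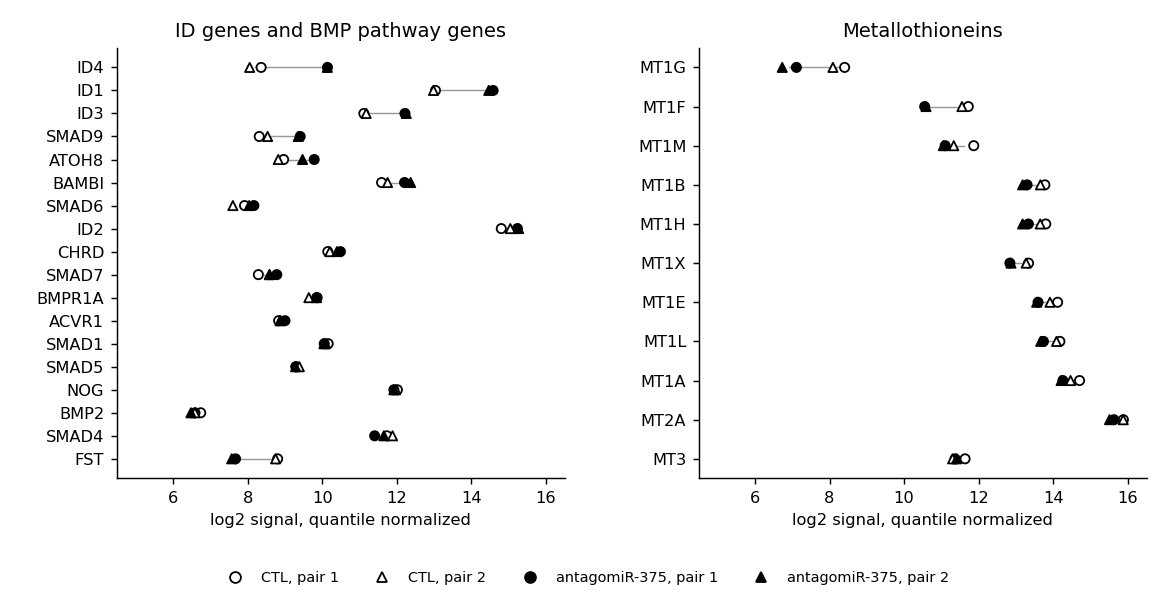
Log2 signal on each TT array of the ID and BMP pathway genes (left) and of the metallothioneins (right) above the minimum level, ordered by log2 fold change. Open symbols are CTL, filled symbols antagomiR-375, circles pair 1 and triangles pair 2; ID1, ID3 and ID4 lie higher with antagomiR-375, and FST, MT1G and MT1F lower.

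CXCL2 was followed by other genes under nuclear factor kappa B, a list also chosen after values were seen. Of 9 above the minimum level 3 were called higher (33.3%), beside 2.86% of all genes, and 0 lower. CXCL2 and ICAM1 were below the minimum level on both CTL arrays and passed it through their antagomiR-375 arrays. The count is therefore not independent evidence. ICAM1, an adhesion molecule for leukocytes, read 5.59 and 5.77 with CTL, against 6.91 and 6.81 with antagomiR-375, and the cytokine IL6 differed by 0.68 and 0.73 in the pairs. With the deposited values, the median signal or normexp, ICAM1 was at 0.65 to 0.69 on average. Under the same settings IL6 was at 0.44 to 0.51, below the 0.6 of the fold rule. The feedback inhibitor NFKBIA read 12.58 and 12.65 with CTL, against 12.56 and 12.71 with antagomiR-375, and the chemokine CCL2 was at -0.18, or above 0 under spike-in centring. The promoter of CXCL2 (RefSeq, GRCh38.p14, chr4:74099196-74099445, minus strand, the 250 bases before the start) is shown for its match to the NF-kB consensus, in capitals, where matches on both strands overlap.
CXCL2 promoter: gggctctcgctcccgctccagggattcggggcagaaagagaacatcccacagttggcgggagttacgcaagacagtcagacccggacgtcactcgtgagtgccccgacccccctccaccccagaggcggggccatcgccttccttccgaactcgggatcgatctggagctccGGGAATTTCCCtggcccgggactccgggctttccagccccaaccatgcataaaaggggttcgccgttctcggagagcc
This consensus was found in 16.1% of the 317 promoters of genes called higher, in 11.3% of the 115 of genes called lower, and in 11.4% of the 10273 promoters of genes above the minimum level.

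The cyclic AMP response element TGACGTCA, read by CREB and ATF factors, was in 4.73% of the promoters of the genes called higher (15 of 317), in 1.74% of those called lower (2 of 115), in 2.82% of those of genes above the minimum level and in 1.77% of all 27305. These shares are a description with no test. The 15 were EMC10, MCAM, SLC31A1, KCNF1, ST3GAL5, ISCU, CHPF, MAFF, IFRD1, PITPNA, VGF, PPP1R15A, CGA, DUS2 and LDAH. CGA, the alpha chain of the glycoprotein hormones, differed by 0.41 and 0.84 in the pairs, and VGF, a neuropeptide precursor of secretory granules, by 0.91 and 0.48. EMC10 had 3 copies, and its promoter (RefSeq, GRCh38.p14, chr19:50476257-50476506, plus strand) is shown with them in capitals.
EMC10 promoter: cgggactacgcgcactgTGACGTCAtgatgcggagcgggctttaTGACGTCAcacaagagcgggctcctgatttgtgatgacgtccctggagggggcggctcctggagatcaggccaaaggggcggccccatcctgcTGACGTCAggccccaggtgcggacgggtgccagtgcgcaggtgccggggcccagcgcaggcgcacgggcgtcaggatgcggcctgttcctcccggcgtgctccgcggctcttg
ATF3, FOS and NR4A3 had no such match in this window. The AP-1 element TGACTCA was in 1.89% of the promoters of higher genes (6 of 317) and in 6.09% of those of lower genes (7 of 115). It was in 2.56% of those of genes above the minimum level and in 4.16% of all promoters.

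Seed matches could be read only in the 60-base probes themselves, not in whole transcripts. Of 141 probes above the minimum level with CGAACAA or GAACAAA, the match to bases 2 to 7 followed by A, 5 were called higher (3.55%) and 0 lower, beside 2.78% and 1.47% of all 20931 probes. The median log2 fold change of the 141 was 0.00. The called ones were probes of WBP1L, SPOPL, MAP4K1, SNORD116-11 and SNORD116-6, and 30 bases of 4 of them are shown, with the match in capitals, to let the sites be compared. On hg19 the probes lie at chr10:104575444-104575503 (WBP1L), chr2:139330359-139330418 (SPOPL), chr15:25321109-25321168 (SNORD116-11) and chr15:25310210-25310269 (SNORD116-6), all on the plus strand.
WBP1L: tgtctcaaaggCGAACAAgttttaccaaaa
SPOPL: tccagttGAACAAAtattgagtgcctatca
SNORD116-11: ggaaagttGAACAAAatgagtgaaaacttt
SNORD116-6: gaaaagctGAACAAAatgagtgaaaactca
WBP1L, also among the 22 genes of the study, read 7.89 and 7.97 with CTL, against 8.99 and 9.13 with antagomiR-375, and was at -1.997 in Nthy-ori 3-1 cells with premiR-375. SPOPL, an adaptor of a ubiquitin ligase, differed by 1.21 and 1.34 in the pairs and by -0.28 in the other line. A match is no proof of a site, and 6 probes with the longer match CGAACAAA had 0 called.

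The SNORD116 genes are imprinted C/D box small nucleolar RNAs repeated on chromosome 15. Of the 11 on the array, 3 were below the minimum level and 3 were called higher, beside 2.86% of all genes above that level. Called higher were SNORD116-11 at 7.72 and 7.29 with CTL, against 8.43 and 8.30 with antagomiR-375, SNORD116-6 with 0.51 and 0.75 in the pairs and SNORD116-12 with 1.23 and 1.004. For these 3 both antagomiR-375 arrays were above both CTL arrays, as for 457 of the 466 genes called higher and 23.9% of all genes. SNORD116-19, the brightest, differed by 0.53 and 0.54. The probes of these copies differ from that of SNORD116-11 by 5 to 18 of 60 bases, so that the copies can share signal. In Nthy-ori 3-1 cells with premiR-375 the same 4 were at -2.99, -2.29, -2.47 and -2.51. The copies SNORD116-26, SNORD116-27 and SNORD116-29 were between -0.29 and -0.18 in TT cells. With premiR-375 they were at -0.26, -1.32 and -1.24 in Nthy-ori 3-1 cells. SNORD116-4 was at 0.24 in TT cells and at -1.91 in Nthy-ori 3-1 cells. Copies not called in TT cells were thus also lower with premiR-375. The 2 Cajal body RNAs called higher, SCARNA9 at 9.86 and 9.57 with CTL, against 10.69 and 10.67 with antagomiR-375 and SCARNA17 at 9.66 and 9.68 with CTL, against 10.82 and 10.60 with antagomiR-375, are among the 22 genes of the study.

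As whole lists, these small RNAs had medians below 0. For C/D box RNAs, SNORD116 included, the median was -0.25 (101 genes, 2.97% higher, 0.99% lower), with -0.32 in pair 1 and -0.15 in pair 2. For H/ACA box RNAs it was -0.21 (95 genes, 0 higher, 2.11% lower), with -0.38 and -0.05, so that it came mostly from pair 1. For Cajal body RNAs it was -0.35 (20 genes, 10% higher, 5% lower), with -0.48 and -0.19. The higher ones there were SCARNA9 and SCARNA17, which the study chose on these same arrays. Of all genes 2.86% were called higher and 1.48% lower. Replication-dependent histone genes, whose mRNAs lack a poly(A) tail, had a median of -0.28 (-0.46 in pair 1 and -0.18 in pair 2). Of 62 genes 60 were below 0, 53 of them in both pairs (85.5%, beside 36.2% of all genes), though 0 were called. The labels give the material as polyA RNA and the methods of the study as total RNA, and both families consist largely of transcripts without a polyA tail. RNA integrity also differed between the groups, and its part in these medians was not tested. Under spike-in centring the medians were -0.04, 0.01, -0.15 and -0.15 in the same order.

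Genes of mitosis had a median of -0.17 over 33 members, 25 of them (75.8%) below 0 in both pairs, beside 36.2% of all genes, and 0 called. NUSAP1, a spindle protein, differed by -0.48 and -0.27 in the pairs, the kinase CDK1 by -0.37 and -0.22, the kinesin KIF2C by -0.34 and -0.33, and MKI67, the proliferation antigen, by -0.12 and -0.29. Under spike-in centring this median was 0.01. Genes of DNA replication had a median of -0.03 over 35 members, from -0.37 for cyclin E1 to 0.59 for GINS4, with 0 called. Among p53 targets 1 of 21 was called lower (4.76%, beside 1.48% of all genes), TP53INP1 at -0.55 and -0.83. CDKN1A, the inhibitor p21, read 8.52 and 8.46 with CTL, against 8.61 and 8.43 with antagomiR-375. Of 24 regulators of apoptosis 1 was called higher (4.17%, beside 2.86% of all genes). This was BCL2, which blocks apoptosis, at 10.04 and 10.11 with CTL, against 10.87 and 10.81 with antagomiR-375. MCL1, another inhibitor of apoptosis, differed by 0.17 and -0.82.

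Of 37 proteasome subunits 34 (91.9%) were above 0, beside 48.2% of all genes, with a median of 0.14 and 0 called, led by PSMB10, a subunit of the immunoproteasome. Cholesterol synthesis genes had a median of 0.14 (23 genes, 82.6% above 0, 0 called), with CYP51A1, lanosterol demethylase, at 0.40 and 0.46 in the pairs. Chaperones of the cytosol had a median of 0.13 with 1 called higher of 33 (3.03%, beside 2.86% of all genes), the small heat shock protein CRYAB at 0.72 and 0.70. HSPA1A, the inducible HSP70, read 12.16 and 12.18 with CTL, against 12.65 and 12.64 with antagomiR-375. Cytosolic ribosomal proteins had a median of -0.03, and genes of oxidative phosphorylation of -0.06. The medians of the last 2 lists were above 0 under spike-in centring. Lysosome and autophagy genes had a median of -0.02 over 27 members, with WIPI1 at 0.93 and DRAM1 at 0.92 called higher (7.41%, beside 2.86% of all genes). Glycolysis genes had a median of 0.16 over 19 (0.15 in pair 1 and 0.06 in pair 2) and hypoxia genes one of 0.04 over 13, both with 0 called. Of 18 interferon response genes 3 were called higher (16.7%, beside 2.86% of all genes) and 1 lower (5.56%, beside 1.48%). IFI27 differed by 0.76 and 2.40, and ISG15 differed by 0.45 and 0.80, while IFIT1, which binds foreign RNA, read 9.80 and 9.51 with CTL, against 8.97 and 8.89 with antagomiR-375.

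**Figure D4:**
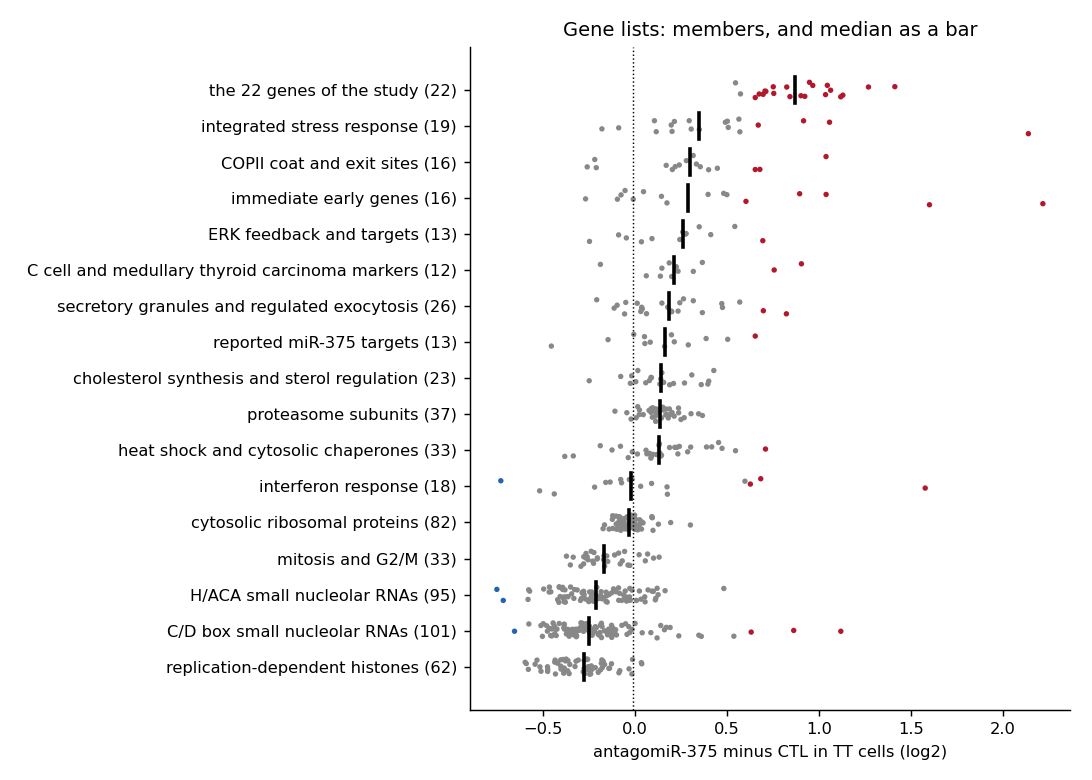
Log2 fold change of antagomiR-375 over CTL in TT cells for the members of 17 gene lists (number of members in brackets), 1 point per gene, red at 0.6 or more, blue at -0.6 or less. The black bar is the median of a list and the dotted line the median of all genes above the minimum level, -0.01; the medians run from 0.87 for the 22 genes of the study to -0.28 for histones.

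The endocrine markers of TT cells differed little at their brightest members. CALCA read 18.49 and 18.61 with CTL, against 18.61 and 18.61 with antagomiR-375, and CHGA 16.71 and 16.98 with CTL, against 17.00 and 16.99 with antagomiR-375. RET, the receptor kinase mutated in hereditary medullary carcinoma, read 13.62 and 13.78 with CTL, against 13.51 and 13.52 with antagomiR-375. Of the 12 C cell markers 2 were called higher (16.7%, beside 2.86% of all genes). CEACAM5, the carcinoembryonic antigen used as a serum marker of this tumour, read 7.09 and 7.29 with CTL, against 8.23 and 7.96 with antagomiR-375. GRP, gastrin-releasing peptide, read 10.52 and 10.43 with CTL, against 11.26 and 11.20 with antagomiR-375. The median of the 12 was 0.21 (0.35 in pair 1 and 0.11 in pair 2). Of 26 genes of secretory granules and exocytosis 2 were called higher (7.69%, beside 2.86% of all genes). These were RAB3B, a GTPase of vesicle docking, at 0.81 and 0.84 in the pairs, and VGF. The prohormone convertase PCSK1 differed by 0.54 and 0.40. The median of the 26 was 0.18, with 0.25 in pair 1 and 0.07 in pair 2. Of the kinase receptors that vandetanib inhibits, a list that the study's drug experiments put in view, 3 were above the minimum level and 0 were called, RET at -0.19, EGFR at 0.24 and KDR at 0.09. In the PI3K and AKT pathway 1 of 21 was called higher (4.76%, beside 2.86% of all genes). This was PIK3R1, the regulatory subunit p85 alpha, at 0.74 and 0.63. Of 25 genes of miRNA processing and silencing 0 were called, from -0.40 for PAN2 to 0.40 for AGO4.

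The response was set beside that of Nthy-ori 3-1 cells, whose arrays lie on other slides but were quantile normalized together with the TT arrays, and which received more rather than less miR-375. Of the genes called higher in TT cells 317 were above the minimum level in both lines, and 35 of them (11.04%) were lower by 1 or more with premiR-375, beside 2.7% of all 13979 such genes; 8 were higher by 1 or more, beside 1.62%. Of the 148 genes called lower in TT cells 16 (10.8%) were higher by 1 or more with premiR-375 and 1 was lower. The median change in Nthy-ori 3-1 cells was 0.00 for the TT-higher genes, 0.22 for the TT-lower genes and 0.05 for the rest. Among the TT genes with the largest differences, ATF3 was at -0.51 in Nthy-ori 3-1 cells, ID1 at 0.14 and FOS at 0.30. NR4A3 was higher in both lines, by 2.05 with premiR-375. Of the 15 genes lower in TT cells, MPZL3 was at 1.59 and MT1F at 1.44, while DOK7 was at -1.20 and NADK2 at -0.54, and the median of the metallothioneins was -0.20. Of the 466 TT-higher genes 75, and of the 241 TT-lower genes 41, were not well above background on any Nthy-ori 3-1 array. The same held for 785 of the 15585 genes not called. MLC1, C2CD4A and PPP1R14D were among the 75.

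The difference between both responses was tested as an interaction over all 8 arrays. With limma 0 probes passed an adjusted p of 0.05 (smallest 0.149), and 8405 of 50582 had an unadjusted p under 0.05 (16.6%). The difference was 3.59 ± 0.14 (SE) for MAT2B, 3.14 ± 0.12 (SE) for KIAA1191, 2.04 ± 0.16 (SE) for SEC23A, 3.51 ± 0.30 (SE) for CXCL2 and 1.37 ± 0.13 (SE) for ID1, each with an adjusted p of 0.149, and 0.17 ± 0.16 (SE) for NR4A3 with 0.664. MAT2B, KIAA1191 and SEC23A were chosen by the study partly on these same arrays, for opposite changes in both lines. CXCL2, ID1 and NR4A3 were named here for their change in TT cells. The size of these differences is therefore not independent evidence. Other settings gave other counts: 1682 probes passed with the deposited log2 values, 1714 with the median signal and 2600 with normexp background correction.

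**Figure D5:**
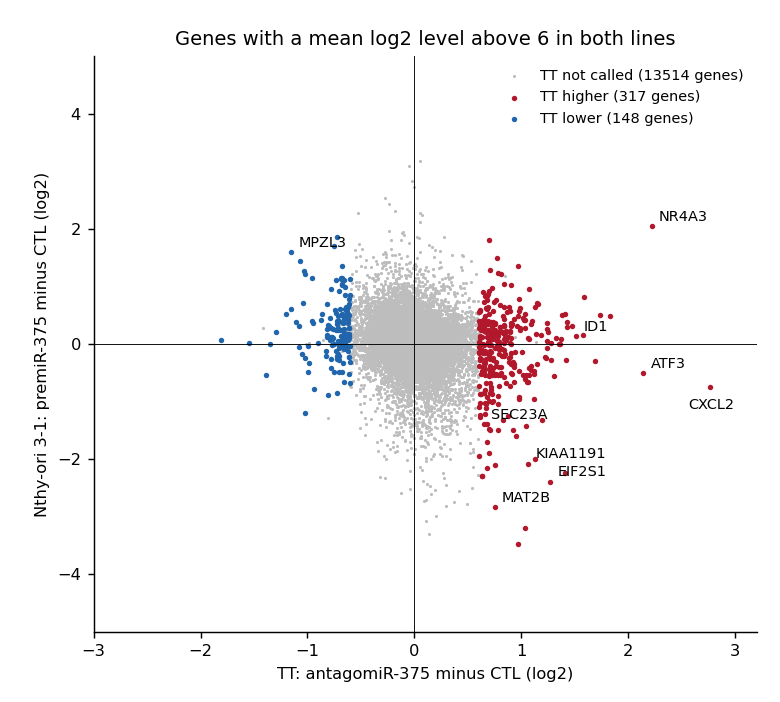
Log2 fold change with antagomiR-375 in TT cells (x axis) and with premiR-375 in Nthy-ori 3-1 cells (y axis) for the 13979 genes above the minimum level in both lines, 1 point per gene, coloured by the call in TT cells. SEC23A, MAT2B, KIAA1191 and EIF2S1 lie at the lower right, NR4A3 at the upper right and MPZL3 at the upper left.

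The genes called higher and lower also differed in kind. A RefSeq gene type was at hand for 410 of the 466 higher and 153 of the 241 lower genes, and 36.5% of the lower genes had no RefSeq name, against 12.02% of the higher and 19.4% of all. Among those with a type, 96.8% of the higher genes were protein coding and 1.22% long non-coding, against 82.4% and 13.1% of the lower genes and 91.6% and 4.09% of all genes above the minimum level. Both sets were dimmer than the rest, with a median log2 level of 8.47 for higher, 7.66 for lower and 9.19 for all genes. The GC content of their probes was alike, with medians of 41.7% in both and 43.3% overall. Where a called gene had another bright probe, all its other probes had the same sign for 81 of 95 higher and 27 of 33 lower genes, and another probe was also called for 42 and 12. Of the higher genes 58 (12.4%) had another higher gene within 100 kb on hg19, beside 6.45% of all genes above the minimum level, and of the lower genes 10 (4.24%) had a lower neighbour, beside 3.45%.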

How the data were processed

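Messenger RNA and other transcripts were measured on 8 1-colour arrays, 2 per group. The authors deposited, per array, the scanner intensity of each spot (Feature Extraction output: processed signal, mean and median signal, local background) and 1 table of log2 values, whose ranks on every array are those of the median signal (Spearman rho 1) and whose column medians lie at 6.23 to 6.24 for TT and at 6.49 for Nthy-ori 3-1; the submitters' processing notes name limma. Here the log2 processed intensity was used. Control and outlier spots (341 to 401 per TT array) were left out, spots of a probe averaged, the 8 arrays quantile normalized, and the TT arrays fitted with limma 3.58.1 in R 4.3.3 with the pair as a block, p-values adjusted over all probes by Benjamini-Hochberg. The sample titles number both groups 1 and 2, while the description fields number the TT replicates otherwise, with the same pairing by slide. Each title number is 1 slide, and the differences between slides correlated between groups (r = 0.33 over 27241 probes). The methods call the replicates biological without saying what was repeated, so p-values measure the spread between these samples. Levels are log2 intensities, which are not compared between probes as abundances, and 2 arrays per group limit the precision.

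The threshold of 0.6, the level minimum of 6 and the absence of a p criterion follow the selection of TT genes in the study. Current symbols came from RefSeq by accession, symbol or synonym for 31412 of 50599 probes. On the array EMC10 is named C19orf63, NECTIN2 PVRL2, RIPOR3 FAM65C, NADK2 NADKD1, C1QTNF12 FAM132A and MCUB CCDC109B. Genes were named by rule: symbols called by fold, well above background on both arrays of the brighter group, the 15 higher and 15 lower with the largest smaller-of-2-pairs change, up to 4 members of each list (the largest changes and those that define its name), and SEC23A, MAT2B and KIAA1191. Further list members, SPOPL, the SNORD116 copies and the genes with a TGACGTCA match were named after their values were seen. The members and lists were chosen with earlier results of these data known. The scripts were tested on simulated data. Promoters and the miRNA are RefSeq sequences (GRCh38.p14), probe coordinates those of the array (hg19).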

Additional observations from a re-analysis of the deposited data

How the results depend on the processing

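The counts of 466 higher and 241 lower genes stayed within 1.5 times under the other quantile normalization, the 75th percentile, other background corrections, the deposited log2 values, outlier spots kept and the median over probes. They moved to 978 and 30 with spike-in centring, to 2010 and 1855 without a minimum level, to 102 and 29 at a log2 fold change of 1, and to 301 and 119 with each pair past 0.6. Without replicate 1 the rule on the remaining pair gave 739 and 402, and without replicate 2 it gave 715 and 501. With the deposited log2 values 279 of the 466 and 107 of the 241 kept their call. The cause was not tested.

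TT probes past an adjusted p of 0.05 numbered 0 in the paired fit, 0 with no replicate block (smallest adjusted p 0.407), 10 with the median signal without background correction, and 82 in the fit of both lines with the slide as replicate block, the probe filter and the variance trend together; the other fits gave 0, those that left out a replicate too (0 to 0). The interaction count of 0 became 1682 with the deposited log2 values, 1714 with the median signal and 2600 with normexp, and stayed 0 with the 75th percentile, outlier spots kept and the TT arrays normalized alone; spike-in centring was not run for it. The share of seed-matched probes called higher moved from 3.55% to 0% for 8mers, of which there were 6. All 33 named genes kept their direction in all 495 values under the alternatives, but part of this was fixed in advance. The naming rule required the same direction in both pairs, so leaving out a replicate could not reverse it. Fits that changed only the block, the probe filter or the variance model returned the same fold change. The remaining values reuse the same arrays. Medians of 13 of 39 gene lists changed sign under spike-in centring, of 2 with the 75th percentile, of 1 with the median signal, and of 6 and 4 without replicate 1 and 2. Signal over background limits the dim genes: 45.3% of the higher and 56.0% of the lower genes had a mean log2 level of 6 to 8, and the minimum, a mean over 4 arrays, keeps genes that are dim in 1 group.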
